A study of Mus musculus with 9 samples.

Results

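Transcripts of 10 genes of the semaphorin system were followed in 3 subsets of mouse splenic B cells, out of 24459 rows of the expression table. The genes were the semaphorins Sema4a, Sema4b, Sema4d and Sema7a, the plexins Plxnb2, Plxnc1 and Plxnd1, the neuropilins Nrp1 and Nrp2, and Plxdc1, which encodes a plexin domain containing membrane protein. They were taken by gene symbol, and they were chosen by their levels in these same libraries, so that their differences between subsets, and whether each met the threshold used for all genes, are given as a description and support nothing. They are 10 of 33 mouse semaphorin, plexin, neuropilin and plexin domain containing genes that were looked up.

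Semaphorins are secreted, membrane-spanning or lipid-anchored proteins that were first known as guidance cues for growing axons and that also act between cells of the immune system. Plexins are their main receptors, and they pass the signal on to small GTPases and the actin cytoskeleton. Neuropilins have short cytoplasmic tails and serve as coreceptors with plexins for the secreted class 3 semaphorins, and they also bind vascular endothelial growth factors.

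The 3 subsets were FO B cells, which are follicular cells with high IgD, BDL B cells, which are cells of the same follicular gate with low or no IgD, and MZ B cells of the marginal zone. FO and BDL B cells were gated as B220+IgMintCD21intCD23+CD93- and split by IgD, whereas MZ B cells were gated as B220+IgMhiCD21hiCD23-CD93-. Spleens came from untreated mice of 8 to 10 weeks, 5 mice were pooled for each sort, and each subset had 3 libraries. The sample labels give the strain as C57/BL6 and the study's account of its sequencing gives B10.PL, and which of the names holds could not be settled from the table. The 3 libraries of a subset carry 3 numbers in their titles that read as dates and recur in each subset, called replicates 1 to 3 here. The labels do not say which step these numbers mark, and any p-value measures the spread between these libraries.

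The table holds FPKM (fragments scaled by transcript length and by the fragments mapped in each library), which are levels per length and can be compared between genes. Columns summed to between 446033 and 517208 FPKM. The 8 B cell markers were all above 1 FPKM on average. Cr2, which encodes CD21, was at 400 to 505 FPKM in MZ against 97.8 to 150 FPKM in the other libraries, and Fcer2a, which encodes CD23, was at 26.0 to 34.5 FPKM in MZ against 389 to 538 FPKM in the others, in the direction of the gates. The summed FPKM of 5 neutrophil markers was 5.21 to 5.73 in replicate 2 of each subset and 0.204 to 1.01 in the other libraries. In such bulk libraries, fewer cells of a type and less RNA per cell cannot be told apart.

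Of the 10 genes, Plxnd1, Plxnc1, Nrp2, Sema7a and Sema4b had their highest levels in MZ B cells, Plxnb2, Nrp1 and Plxdc1 in BDL B cells, and Sema4a was lowest in MZ B cells. Sema4d was at a similar level in all 3 subsets. A gene met the call when limma on log2(FPKM + 0.1) gave a Benjamini-Hochberg adjusted p under 0.05 and a difference of at least 2-fold, among the 11597 rows whose mean over the libraries reached 0.5 FPKM. Only 7 of the 10 genes reached that mean, and Sema4a, Nrp1 and Plxdc1 did not.

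Between BDL and FO B cells, 1 of these 7 genes met the call as higher in BDL (Plxnd1) and 0 as higher in FO, where 1.64% of all rows tested were called higher in BDL and 0.267% higher in FO. Between BDL and MZ B cells, 4 met it as higher in MZ and 0 as higher in BDL, against 4.34% and 3.47% of all rows. Between FO and MZ B cells, 5 met it as higher in MZ and 0 as higher in FO, against 5.54% and 3.39% of all rows. The median difference over the 7 genes was 0.34 on the log2 scale for BDL minus FO, -1.34 for BDL minus MZ and -1.56 for FO minus MZ, and over all rows tested it was 0.05, 0.06 and 0.01. Because the 7 genes were chosen on these libraries, nothing is read from the distance between their counts and those of all rows, and each pair of the 3 comparisons shares a subset.

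**Figure D1:**
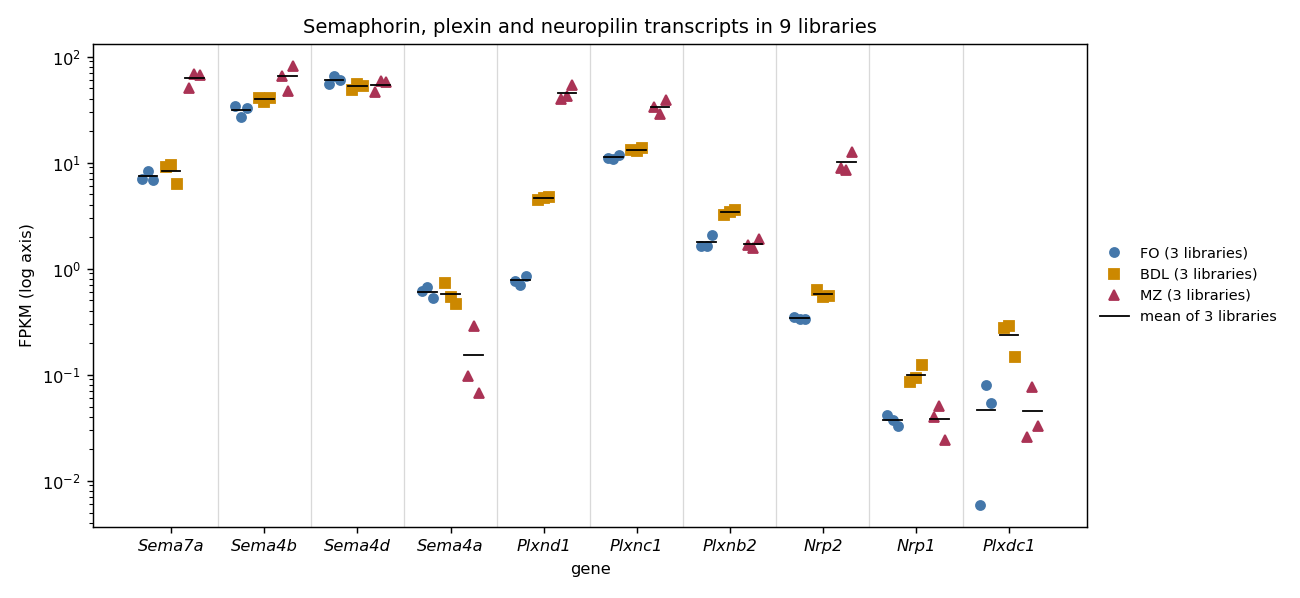
FPKM of the 10 genes on a log axis, with 1 point per library (3 FO circles, 3 BDL squares and 3 MZ triangles) and a line at the mean of each subset. The MZ points stand above all others for Sema7a, Sema4b, Plxnd1, Plxnc1 and Nrp2 and below all others for Sema4a, and the BDL points stand above all others for Plxnb2, Nrp1 and Plxdc1.

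Plxnd1, the plexin that binds semaphorin 3E, had the largest ratio between subset means of the 10 genes, 58.3-fold between MZ and FO B cells. It lies at chr6:115904829-115945023 on the minus strand of NCBIM37, the assembly also called mm9. Its level was 0.769, 0.693 and 0.859 FPKM in the FO libraries, 4.42, 4.62 and 4.75 FPKM in the BDL libraries, and 39.7, 42.1 and 53.7 FPKM in the MZ libraries. The 3 subsets did not overlap, and the spread within each was small beside the steps between them. The mean level was 5.94-fold higher in BDL than in FO and 9.82-fold higher in MZ than in BDL. On the log2 scale the differences were 2.43 ± 0.125 (SE) for BDL minus FO, 3.26 ± 0.125 for MZ minus BDL and 5.69 ± 0.125 for MZ minus FO, and all of them met the call. Plxnd1 was the only 1 of the 7 genes for which BDL and FO differed by that rule.

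Nrp2, the coreceptor for semaphorin 3F and for vascular endothelial growth factor C, followed with a step that lay almost wholly between BDL and MZ B cells. The gene is at chr1:62749859-62865269 on the plus strand. Its level was 0.353, 0.332 and 0.334 FPKM in FO, 0.633, 0.537 and 0.550 FPKM in BDL, and 8.96, 8.58 and 12.5 FPKM in MZ libraries. No libraries of different subsets overlapped, although FO and BDL lay close together beside MZ. The difference was 3.89 ± 0.161 (SE) on the log2 scale for MZ minus BDL and 4.50 ± 0.161 for MZ minus FO, and both met the call. For BDL minus FO it was 0.61 ± 0.161 and did not meet it.

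The semaphorin Sema7a and the plexin Plxnc1, a known ligand and receptor pair, were both highest in MZ B cells. Sema7a is a semaphorin held in the membrane by a glycosylphosphatidylinositol anchor, and its gene is at chr9:57787920-57810671 on the plus strand. It was at 7.00, 8.41 and 6.80 FPKM in FO, 9.09, 9.49 and 6.21 FPKM in BDL, and 50.5, 68.1 and 67.6 FPKM in MZ libraries. The FO and BDL libraries overlapped, and the lowest MZ library was above all of them. The difference was 2.90 ± 0.188 (SE) on the log2 scale for MZ minus BDL, 3.04 ± 0.188 for MZ minus FO and 0.14 ± 0.188 for BDL minus FO, and only those with MZ met the call.

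Plxnc1, at chr10:94253617-94407212 on the minus strand, was at 11.0, 10.9 and 11.9 FPKM in FO, 13.0, 12.8 and 13.6 FPKM in BDL, and 33.3, 28.6 and 38.8 FPKM in MZ libraries. The subsets did not overlap, but FO and BDL were close together. The difference was 1.34 ± 0.111 (SE) on the log2 scale for MZ minus BDL and 1.56 ± 0.111 for MZ minus FO, which met the call, and 0.22 ± 0.111 for BDL minus FO, which did not. Measured in FPKM, Plxnc1 was the most abundant plexin in every FO and BDL library, and Plxnd1 was above it in every MZ library.

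The promoters of these 4 genes are shown because their transcripts rose together from FO and BDL to MZ B cells. The windows are those of RefSeq, 250 bases before to 50 after the gene's start on GRCm38.p6, and each had 1 exact match in NCBIM37, at chr6:115944974-115945273 (minus strand) for Plxnd1, chr1:62749641-62749940 (plus) for Nrp2, chr9:57787669-57787968 (plus) for Sema7a and chr10:94407430-94407729 (minus) for Plxnc1. Capitals mark the GC box GGGCGG on either strand.
Plxnd1: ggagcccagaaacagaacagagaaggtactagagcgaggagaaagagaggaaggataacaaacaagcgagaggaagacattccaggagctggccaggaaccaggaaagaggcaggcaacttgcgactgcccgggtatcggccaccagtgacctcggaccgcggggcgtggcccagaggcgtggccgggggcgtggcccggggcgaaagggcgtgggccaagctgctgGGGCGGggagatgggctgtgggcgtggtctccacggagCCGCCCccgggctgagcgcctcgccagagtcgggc
Nrp2: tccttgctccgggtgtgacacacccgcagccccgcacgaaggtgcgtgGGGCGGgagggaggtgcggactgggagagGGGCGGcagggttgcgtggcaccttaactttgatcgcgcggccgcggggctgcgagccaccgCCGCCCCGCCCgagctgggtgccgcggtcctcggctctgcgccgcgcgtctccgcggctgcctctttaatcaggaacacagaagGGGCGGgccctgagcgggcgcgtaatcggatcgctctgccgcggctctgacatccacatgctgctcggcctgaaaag
Sema7a: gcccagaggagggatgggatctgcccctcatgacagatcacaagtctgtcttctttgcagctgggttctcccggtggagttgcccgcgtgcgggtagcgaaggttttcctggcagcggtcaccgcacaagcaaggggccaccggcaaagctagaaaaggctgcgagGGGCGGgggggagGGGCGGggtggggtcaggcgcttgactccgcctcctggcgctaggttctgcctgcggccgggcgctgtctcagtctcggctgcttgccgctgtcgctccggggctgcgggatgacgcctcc
Plxnc1: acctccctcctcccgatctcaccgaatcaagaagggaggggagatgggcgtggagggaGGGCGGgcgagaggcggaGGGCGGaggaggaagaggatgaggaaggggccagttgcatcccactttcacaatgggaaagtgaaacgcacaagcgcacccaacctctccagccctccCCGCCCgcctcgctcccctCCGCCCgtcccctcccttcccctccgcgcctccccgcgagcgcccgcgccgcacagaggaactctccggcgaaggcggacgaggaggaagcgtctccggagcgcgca

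All 4 windows were rich in G and C, with 67.0% of bases in Plxnd1, 70.7% in Nrp2, 67.3% in Sema7a and 69.0% in Plxnc1. The GC box was found 2 times in Plxnd1, 5 times in Nrp2, where a pair of sites overlap by a base, 2 times in Sema7a and 4 times in Plxnc1. It was present in 35.7% of all 32851 RefSeq windows of this length. The TATA box TATAAA was found in none of the 4 windows and in 13.6% of all windows. The motif TGGGAA, the core bound by RBPJ, the DNA-binding factor of the Notch pathway, was found once in Plxnc1, 121 bases before the start, in none of the other 3, and in 25.6% of all windows. These motifs were searched on both strands and chosen after the windows had been seen. Distances are from the RefSeq start, which need not be the start of the gene span given above. The Plxnc1 window lies wholly outside that span, on its upstream side.

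Sema4b, a membrane-spanning class 4 semaphorin, was separated by smaller steps. Its gene is at chr7:87331727-87371280 on the plus strand, and its level was 33.8, 27.1 and 32.6 FPKM in FO, 40.2, 37.4 and 40.4 FPKM in BDL, and 66.0, 46.9 and 81.5 FPKM in MZ libraries. The subsets did not overlap, and the MZ libraries spread more widely than the others. The difference was 0.34 ± 0.188 (SE) on the log2 scale for BDL minus FO, 0.68 ± 0.188 for MZ minus BDL and 1.02 ± 0.188 for MZ minus FO, and only the last met the call. That call rested on single libraries, since FO minus MZ was -0.93 without FO replicate 2, -0.99 without MZ replicate 1, -0.84 without MZ replicate 3 and -0.88 without all libraries of replicate 3, each under 2-fold.

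Sema4d, also called CD100, binds B-type plexins and, on lymphocytes, CD72. It lies at chr13:51796615-51889116 on the minus strand. Sema4d was at 54.6, 64.8 and 60.1 FPKM in FO, 48.4, 55.3 and 52.9 FPKM in BDL, and 46.0, 59.1 and 57.5 FPKM in MZ libraries. The libraries of all 3 subsets overlapped. The difference was -0.19 ± 0.119 (SE) on the log2 scale for BDL minus FO, -0.05 ± 0.119 for BDL minus MZ and 0.15 ± 0.119 for FO minus MZ, and none met the call. Sema4d was the most abundant semaphorin in the FO and BDL libraries by FPKM.

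Sema4a, a class 4 semaphorin known for costimulation of T cells, was the 1 gene of the 10 for which every MZ library lay below all FO and BDL libraries. It lies at chr3:88239881-88265104 on the minus strand. Its level was 0.614, 0.667 and 0.533 FPKM in FO, 0.728, 0.535 and 0.467 FPKM in BDL, and 0.0965, 0.290 and 0.0677 FPKM in MZ libraries. FO and BDL overlapped, and every MZ library was below both, with MZ replicate 2 the highest of the 3. Its mean of 0.444 FPKM over the 9 libraries left it outside the rows tested. With no minimum of FPKM, its difference was 1.51 ± 0.315 (SE) on the log2 scale for BDL minus MZ and 1.58 ± 0.315 for FO minus MZ, both meeting the call, and -0.07 ± 0.315 for BDL minus FO.

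With no minimum of FPKM, 2 of the 10 genes met the call between BDL and FO, 6 between BDL and MZ, and 6 between FO and MZ, where 1.63%, 6.56% and 7.62% of the 18518 rows above 0 were called. The genes added to those above were Plxdc1 and Sema4a.

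Plxnb2, a B-type plexin and a receptor of class 4 semaphorins, was highest in BDL B cells. It lies at chr15:88985979-89011218 on the minus strand. Its level was 1.64, 1.65 and 2.09 FPKM in FO, 3.20, 3.43 and 3.58 FPKM in BDL, and 1.67, 1.57 and 1.90 FPKM in MZ libraries. The FO and MZ libraries overlapped, and every BDL library was above them. The mean was 1.90-fold higher in BDL than in FO and 1.99-fold higher in BDL than in MZ. The difference was 0.90 ± 0.124 (SE) on the log2 scale for BDL minus FO and 0.95 ± 0.124 for BDL minus MZ, both under 2-fold and so not called, and 0.06 ± 0.124 for FO minus MZ. It passed 2-fold and met the call for BDL minus FO without FO replicate 3 (2.01-fold), and for BDL minus MZ without MZ replicate 3 (2.03-fold) and after quantile normalization (2.14-fold).

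Plxdc1 and Nrp1 were also highest in BDL B cells, at levels near the bottom of the table. Plxdc1, also known as tumor endothelial marker 7, is at chr11:97784552-97847758 on the minus strand. It was at 0.00591, 0.0799 and 0.0536 FPKM in FO, 0.276, 0.286 and 0.146 FPKM in BDL, and 0.0256, 0.0769 and 0.0326 FPKM in MZ libraries. The BDL libraries stood above all others, which overlapped. These levels came from about 1, 13 and 9 fragments in FO, 44, 52 and 31 in BDL, and 4, 14 and 5 in MZ libraries. Those numbers were read from the spacing of low values and the length of the longest annotated transcript. With no minimum of FPKM the difference was 1.20 ± 0.255 (SE) on the log2 scale for BDL minus FO and 1.20 ± 0.255 for BDL minus MZ, and both met the call. Plxdc1, like the other genes followed here, was chosen by its levels in these libraries, so that its direction is not independent evidence.

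Nrp1, the coreceptor for semaphorin 3A and vascular endothelial growth factor A, is at chr8:130882973-131029362 on the plus strand. Nrp1 was at 0.0419, 0.0370 and 0.0331 FPKM in FO, 0.0845, 0.0930 and 0.123 FPKM in BDL, and 0.0398, 0.0508 and 0.0244 FPKM in MZ libraries, or about 12 to 15, 28 to 53 and 8 to 19 fragments. The BDL libraries stood above the rest, and FO and MZ overlapped. With no minimum of FPKM the difference of log2(FPKM + 0.1) was 0.54 ± 0.0930 (SE) for BDL minus FO and 0.53 ± 0.0930 for BDL minus MZ. Both were under 2-fold on that scale and so not called (limma adjusted p = 0.018 and 0.00568). The added 0.1 is similar to or above these levels and shrinks the difference. Without it, the mean FPKM in BDL was 2.68-fold that in FO and 2.62-fold that in MZ.

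**Figure D2:**
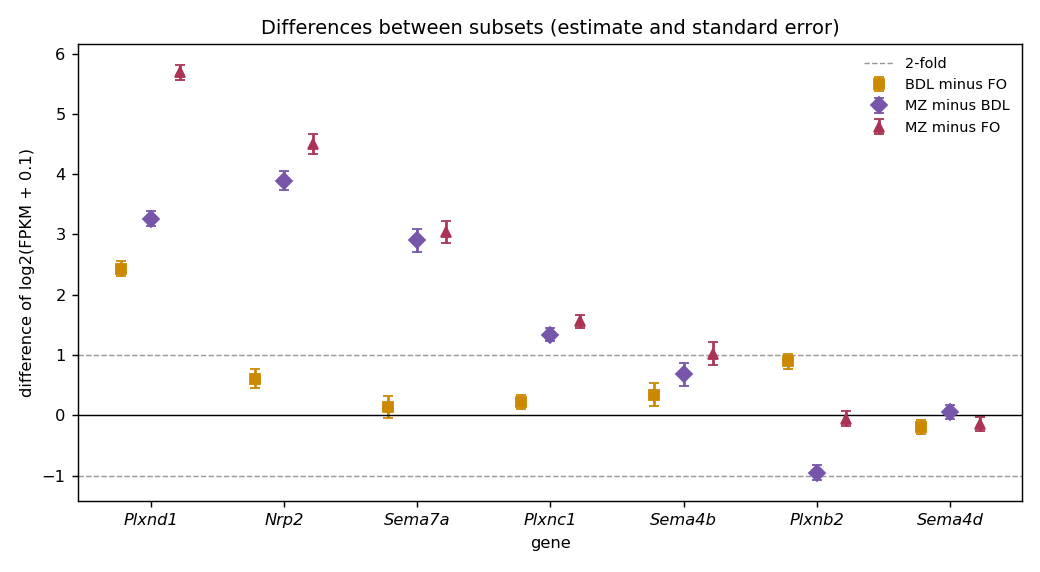
Differences of log2(FPKM + 0.1) between subsets for the 7 genes above the minimum of 0.5 FPKM, as the limma estimate with its standard error, and dashed lines at 2-fold. MZ minus FO falls from 5.69 for Plxnd1 to 1.02 for Sema4b, and Plxnb2 is the gene that is higher in BDL than in both other subsets, at 0.90 over FO and 0.95 over MZ.

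For the 5 genes highest in MZ B cells, BDL B cells lay at different places between the other subsets. On the log2 scale, BDL lay 42.7% of the way from FO to MZ for Plxnd1, 33.3% for Sema4b, 14.0% for Plxnc1, 13.6% for Nrp2 and 4.57% for Sema7a. Whether these shares differ from each other was not tested.

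The summed level of the 9 plexins was 15.9 ± 1.08 FPKM (SD, n = 3) in FO, 24.2 ± 0.439 in BDL and 82.2 ± 11.9 in MZ libraries. Plxnd1 made up 4.86% ± 0.219 (SD, n = 3) of the plexin sum in FO, 19.0% ± 0.982 in BDL and 54.9% ± 2.68 in MZ libraries. Plxnc1 went the other way as a share, from 71.0% ± 1.42 in FO to 54.3% ± 2.75 in BDL and 40.9% ± 2.46 in MZ libraries, although its own level was highest in MZ. Plxnb2 had 11.2% ± 0.849, 14.1% ± 1.01 and 2.09% ± 0.102 of the sum in FO, BDL and MZ libraries.

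The summed level of the 20 semaphorins was 101 ± 2.44 FPKM (SD, n = 3) in FO, 102 ± 2.05 in BDL and 186 ± 23.7 in MZ libraries. Sema4d made up 58.9% ± 3.70 of the semaphorin sum in FO, 51.0% ± 2.52 in BDL and 29.2% ± 3.33 in MZ libraries. Sema7a had 7.29% ± 0.776, 8.07% ± 1.70 and 33.3% ± 4.15, so that in MZ libraries Sema4b, Sema7a and Sema4d held similar shares. Of the neuropilin transcripts, Nrp2 was 90.1% ± 0.801 in FO, 85.1% ± 3.27 in BDL and 99.6% ± 0.199 in MZ libraries.

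**Figure D3:**
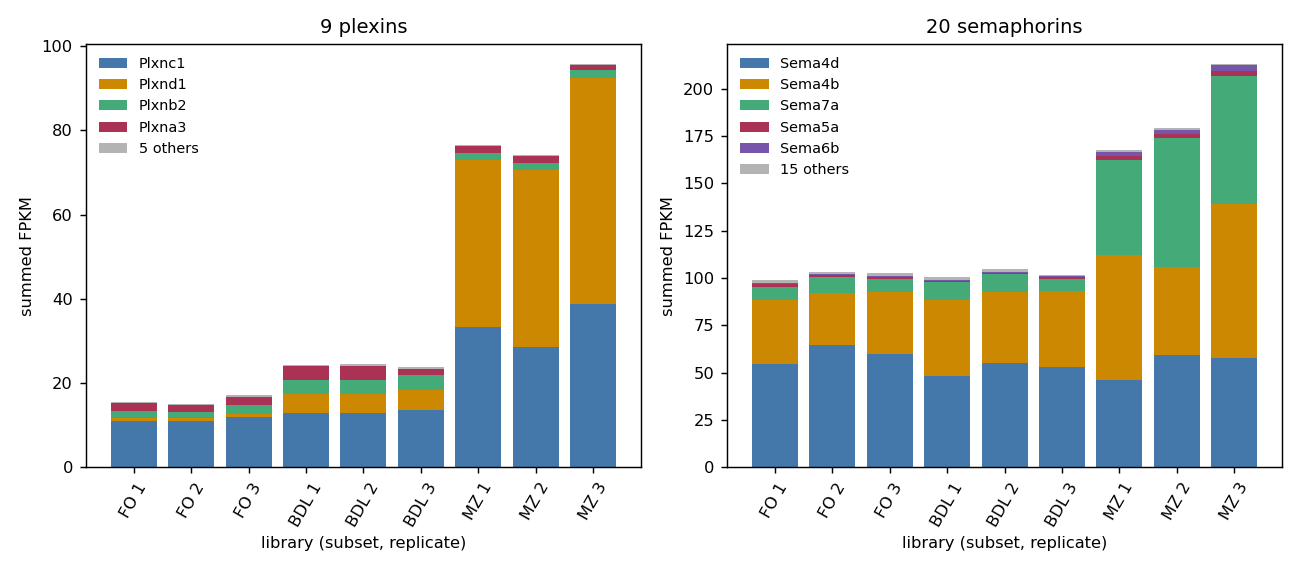
Summed FPKM of the 9 plexins (left) and the 20 semaphorins (right) in each of the 9 libraries, stacked by gene. The plexin sum is 15.9 FPKM on average in FO and 82.2 in MZ, where Plxnd1 takes the largest share, and the added height of the semaphorin bars in MZ is mostly Sema7a and Sema4b.

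Of the 23 other genes of the family, 20 were under 0.5 FPKM in every library, among them Sema3e, the known ligand of Plxnd1, at 0.0312 to 0.111 FPKM. The other 3 were Sema6b, Sema5a and Plxna3. Sema6b, a transmembrane class 6 semaphorin, was at 0.387 to 0.521 FPKM in FO, 0.468 to 0.501 FPKM in BDL and 2.27 to 3.27 FPKM in MZ libraries, and it was higher in MZ by 2.20 ± 0.182 (SE) on the log2 scale than in BDL and by 2.29 ± 0.182 than in FO (limma adjusted p = 6.72e-05 and 4.52e-05). Sema5a was at 1.20 to 1.36 FPKM in FO, 0.616 to 0.935 FPKM in BDL and 1.69 to 2.51 FPKM in MZ libraries, and it was higher in MZ than in BDL by 1.26 ± 0.191 (limma adjusted p = 0.00184). Plxna3, a receptor for class 3 semaphorins together with neuropilins, passed in none of the comparisons. In Plxna3, BDL replicate 3 stood apart at 1.34 FPKM beside 3.37 and 3.23 FPKM in the other BDL libraries, and without it BDL minus MZ was 1.11 ± 0.198 (SE) on the log2 scale and met the call (limma adjusted p = 0.00614). Over the whole family of 33, of which 10 were tested, 1 gene met the call between BDL and FO, 6 between BDL and MZ and 6 between FO and MZ, all of them as higher in BDL than in FO or higher in MZ, where 1.64%, 4.34% and 5.54% of all rows tested were called in those directions. Of the 10 family genes tested, 7 are the genes chosen on these libraries, and nothing is read from that count.

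Genes that act with these receptors were counted over a longer list. Of 53 other receptors, neuropilin ligands and signalling genes, 33 were tested, and their median difference was 0.10 on the log2 scale for BDL minus FO, 0.20 for BDL minus MZ and 0.13 for FO minus MZ, beside 0.05, 0.06 and 0.01 over all rows tested. Between BDL and FO, limma called 0 as higher in BDL and 1 as lower, where 1.64% and 0.267% of all rows were called. At an unadjusted p under 0.05, 5 were higher and 4 lower in BDL, and the share of all rows at that p was not counted. Between BDL and MZ, 1 was called higher and 1 lower in BDL, where 3.47% and 4.34% of all rows were called. Between FO and MZ, 1 was called higher and 3 lower in FO, where 3.39% and 5.54% of all rows were called.

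Among the other receptors, Itgb1, the integrin subunit that also takes part in binding Sema7a, was at 6.39 to 7.99 FPKM in FO, 10.2 to 14.0 FPKM in BDL and 18.7 to 25.1 FPKM in MZ libraries. It was higher in MZ than in FO by 1.48 ± 0.166 (SE) on the log2 scale (limma adjusted p = 0.000312), and thus had the order of Plxnc1, the other receptor of Sema7a. L1cam, an adhesion molecule that joins Nrp1 in the response to semaphorin 3A, had the opposite order, at 3.36 to 3.98 FPKM in FO, 1.59 to 1.66 FPKM in BDL and 0.351 to 0.441 FPKM in MZ libraries. It was lower in BDL than in FO by 1.16 ± 0.121 (limma adjusted p = 0.00147) and higher in BDL than in MZ by 1.81 ± 0.121 (limma adjusted p = 2.5e-05). Cd72, the lymphocyte receptor of Sema4d, was at 128 to 227 FPKM over all libraries and passed in no comparison.

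Timd2, a receptor of Sema4a, was under the minimum, at 0 to 0.0116 FPKM in FO, 0.161 to 0.242 FPKM in BDL and 0.317 to 0.452 FPKM in MZ libraries. With no minimum of FPKM it was called higher in BDL than in FO (limma adjusted p = 0.0031) and higher in MZ than in FO (limma adjusted p = 5.09e-05), while Sema4a itself was lowest in MZ libraries.

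Of the 6 neuropilin ligands, 3 were tested and limma called 0 in any comparison, with an unadjusted p under 0.05 for 1 of them between BDL and FO, 3 between BDL and MZ and 1 between FO and MZ. The share of all rows at that unadjusted p was not counted. Vegfb was at 4.09 to 4.57 FPKM in FO, 6.22 to 8.13 in BDL and 4.20 to 4.66 in MZ libraries. It was higher in BDL at under 2-fold (limma adjusted p = 0.0111 against FO and 0.00413 against MZ). Tgfb1 was at 99.1 to 112 FPKM in FO, 101 to 150 in BDL and 52.4 to 72.5 in MZ libraries. It was lower in MZ at under 2-fold (limma adjusted p = 0.0102 against FO and 0.00581 against BDL). Vegfc, a ligand of Nrp2, was at 0.00951 to 0.0359 FPKM in FO and BDL and listed at 0 in the 3 MZ libraries. These levels are at the bottom of the table, where 0 and a few fragments lie close together.

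Of the 39 signalling genes, 27 were tested. None was called between BDL and FO, Mical3 was called between BDL and MZ, and Mical3 and Arhgef12 between FO and MZ. All these calls were as higher in MZ, and they were 3.7% and 7.41% of the genes tested. Of all rows tested, 4.34% and 5.54% were called in that direction. Mical3, of a family of actin-oxidizing enzymes that act downstream of plexins, was at 1.73 to 2.55 FPKM in FO and BDL and 5.46 to 7.79 FPKM in MZ libraries, higher in MZ than in BDL by 1.59 ± 0.161 (SE) on the log2 scale and than in FO by 1.39 ± 0.161 (limma adjusted p = 0.000196 and 0.000374). Arhgef12, a guanine nucleotide exchange factor for RhoA that binds B-type plexins, was at 3.26 to 3.51 FPKM in FO and 7.46 to 8.40 FPKM in MZ libraries, higher in MZ by 1.21 ± 0.0872 (limma adjusted p = 2.81e-05). Rhoa and Rac1, the GTPases themselves, were at 113 to 234 and 44.7 to 82.9 FPKM and were not called. With no minimum, Rnd3 was added as higher in MZ than in both other subsets and Rnd2 as higher in BDL than in MZ, both at under 1 FPKM.

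**Figure D4:**
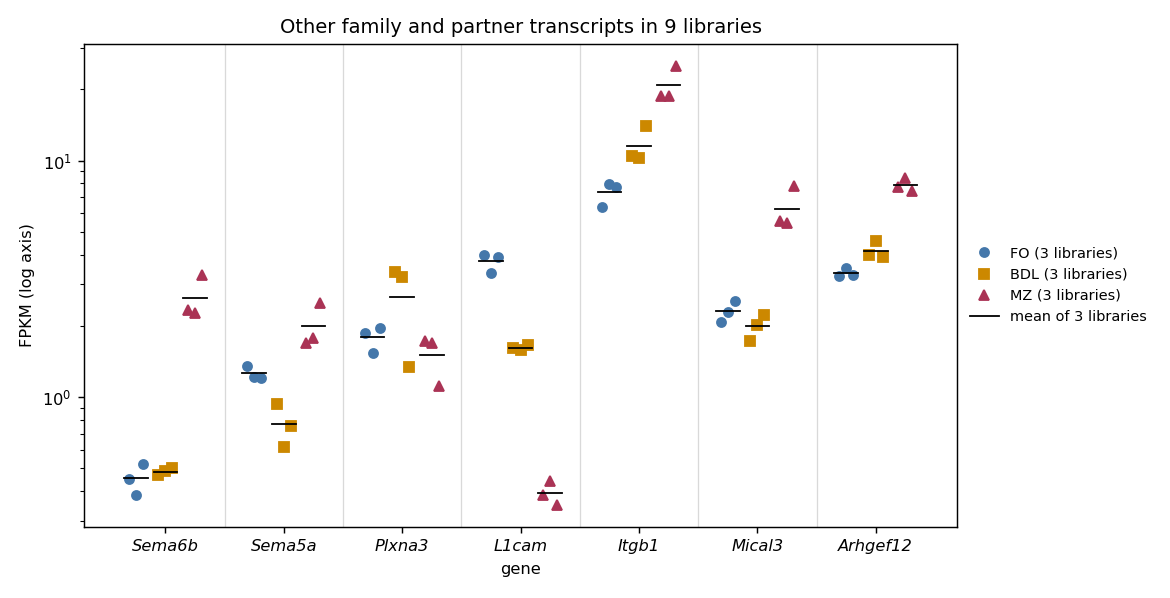
FPKM of the other 3 family genes tested (Sema6b, Sema5a and Plxna3) and of 4 partner genes on a log axis, with 1 point per library and a line at the mean of each subset. L1cam steps down from FO to BDL to MZ, Itgb1 steps up, and BDL replicate 3 lies apart from the other BDL libraries for Plxna3.

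Among all rows tested, those whose log2 levels followed Plxnd1 most closely over the 9 libraries were Znrf3 (r = 0.999), Lysmd2 (r = 0.998) and Bst1 (r = 0.997). Bst1 stood at 0.0782 ± 0.0131 FPKM (SD, n = 3) in FO, 0.699 ± 0.0978 in BDL and 4.33 ± 0.830 in MZ libraries. Those that followed Nrp2 most closely were Asb2 (r = 0.999), S1pr3 (r = 0.998) and Nod1 (r = 0.998), of which S1pr3 was at 1.15 ± 0.129 FPKM in FO, 2.14 ± 0.131 in BDL and 60.5 ± 18.5 in MZ libraries. The 9 points of each correlation fall into 3 subsets that share libraries and depth, and the r values describe that order.

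Plxnd1, Nrp1 and Nrp2 are known from endothelium, and Plxdc1 from tumor endothelium. The summed level of 9 endothelial or stromal markers was 63.9 to 75.3 FPKM in FO, 65.1 to 72.3 in BDL and 43.5 to 52.1 in MZ libraries, and 1 of the 9, Pecam1, was above 1 FPKM on average. Cdh5 was at 0.202 to 0.244 FPKM in FO, 0.314 to 0.396 in BDL and 0.716 to 0.934 in MZ libraries, the order of Plxnd1, while Kdr, Tek and Tie1 were at 0 to 0.0255 FPKM in every library. The summed level of 10 macrophage or monocyte markers was 8.29 to 11.8 FPKM in FO, 10.6 to 14.4 in BDL and 12.9 to 19.7 in MZ libraries, with 3 of the 10 above 1 FPKM on average. Of these 3, Cd68 had its highest mean in MZ (9.78 FPKM, with 5.34 in FO and 4.55 in BDL). Emr1 had its highest mean in BDL (3.48 FPKM, with 0.802 in FO and 0.687 in MZ). Lyz2 had means of 1.43, 1.3 and 1.7 FPKM in FO, BDL and MZ. The part of these cells in the levels of Plxnd1 and Nrp2 was not tested.

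Beside Plxnb2, Nrp1 and Plxdc1, several marker lists or single markers were also highest in BDL libraries. The sum of 9 T cell markers was 10.5 to 12.0 FPKM in FO, 19.6 to 24.7 in BDL and 8.20 to 14.2 in MZ libraries. Only 1 marker, Lck, was above 1 FPKM on average, at 9.06, 20.3 and 9.04 FPKM in FO, BDL and MZ, and Cd3e was at most 0.406 FPKM. Cd3d was similar in the 3 subsets (0.478, 0.483 and 0.447 FPKM), Cd8b1 had its highest mean in MZ and Foxp3 in FO. Cd3e, Cd3g, Cd4, Cd8a and Trat1 had their highest mean in BDL, each under 0.5 FPKM. The sum of 5 B-1 cell markers was 6.31 to 6.72 FPKM in FO, 18.4 to 20.3 in BDL and 8.54 to 10.1 in MZ libraries, with all 5 above 1 FPKM on average. Of these, Spn, Bhlhe41 and Zbtb32 had their highest mean in BDL. Cd5 was similar in BDL and MZ (2.09 and 1.86 FPKM), and Itgam was higher in MZ (1.8 FPKM) than in BDL (1.55). The sum of 5 transitional B cell markers was 305 to 367, 457 to 695 and 361 to 463 FPKM in these subsets, so that BDL and MZ overlapped. Of these, Cd24a had means of 234, 399 and 374 FPKM in FO, BDL and MZ. Cd93, at 3.9, 12.5 and 1.41 FPKM, and Vpreb3, at 104, 128 and 21.6 FPKM, were higher in BDL than in MZ without overlap. The sum of 5 erythroid markers was 1.98 to 4.31 FPKM in FO, 7.05 to 8.10 in BDL and 3.10 to 5.63 in MZ libraries, with 2 of the 5 above 1 FPKM on average. Of these, Hbb-b1 had its highest mean in BDL (5.87 FPKM, with 1.49 in FO and 2.24 in MZ). Hba-a1 was higher in MZ (1.77 FPKM) than in BDL (1.36), Klf1 was lowest in BDL (0.0492 FPKM), and Alas2 was similar in the 3 subsets. The sum of 8 germinal centre markers was 32.0 to 38.2, 33.2 to 36.1 and 10.0 to 12.0 FPKM, but Rgs13 alone was at 3.42 to 6.37 FPKM in BDL and at most 0.268 FPKM elsewhere. The sums of the plasma cell and NK cell markers were not highest in BDL. Of the plasma cell markers, Sdc1 was at 6.86 to 9.58 FPKM in BDL and at most 1.67 FPKM elsewhere, while the others had their highest mean in MZ. Of the NK cell markers, Klrd1 (1.03 FPKM), Klrb1c (0.405) and Ncr1 had their highest mean in BDL, Prf1 in MZ, and Gzma and Eomes in FO. The macrophage marker Emr1 was also highest in BDL. The part of such cells in the levels of Plxnb2, Nrp1 and Plxdc1 was not tested.

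Other annotated genes overlap the spans of Plxnc1, Nrp1, Plxdc1 and Sema4d. The overlap is of whole gene spans with introns, and overlap of exons was not looked at. The labels describe libraries without strand, whereas the study's methods name a stranded kit. Whether reads from those genes entered the levels of these 4 was not tested.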

How the data were processed

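RNA was sequenced from 9 libraries of FACS sorted splenic B cells, 3 each of FO, BDL and MZ. The authors aligned the reads to mm9 with TopHat2 2.1.0 and computed FPKM with Cufflinks, and the deposited table gives FPKM per gene and library. The Cufflinks version and the gene annotation are not given in the sources used here. The labels call the libraries not strand specific, whereas the study's methods name a stranded kit. A second file, with the authors' own Cuffdiff comparisons (fold changes and p-values), was not used.

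FPKM were analysed as log2(FPKM + 0.1) with limma 3.58.1 in R 4.3.3 (eBayes with a trend, subset as the only term, all 9 libraries) on 11597 rows, those whose mean reached 0.5 FPKM. A call needed a Benjamini-Hochberg adjusted p under 0.05 over all rows tested and at least 2-fold. The script was tested on simulated data. The 10 genes, the lists of family, partner and marker genes, and the tests were chosen with earlier results of these data known. A marker gene of these lists is not reported here. All 10 genes are named, together with every family or partner gene called, the 3 most abundant family genes not called, and the 3 rows most like Plxnd1 and Nrp2. Sema3e, Cd72, Timd2, Vegfb, Vegfc, Tgfb1, Rhoa, Rac1, Rnd2 and Rnd3 were named beyond this rule, after their values were seen.

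The table has no counts. Low values of genes with 1 transcript of at least 3000 nt were near whole multiples of a step, with 67.9% to 75.9% within 0.1 of a whole number. The depth read from that step, relative to FO replicate 1, was 0.903 to 1.23, but a wider search gave a step of 0.5 times that size in 3 libraries, so fragment numbers are approximate. Fragment numbers also rest on the longest annotated transcript of each gene. Positions and overlaps came from GENCODE M1 on NCBIM37, whose gene models may not be those behind the deposited FPKM. Python 3.11.15 with matplotlib 3.10.9 drew the figures.

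Replicate numbers stand for the date-like numbers in the sample titles, which the 3 subsets share and whose meaning the labels do not state. The correlation across genes of same-number deviations from the subset means was 0.147, -0.062 and 0.049 between BDL and FO, 0.1, 0.182 and 0.244 for BDL with MZ, and 0.024, 0.008 and 0.014 for FO with MZ libraries. Since the study's methods name no such term, the shared number was tried as a block among the alternatives. The alternatives were 0.01 or 1 added, no minimum or a minimum of 1 FPKM, the 6 libraries of the compared subsets, the replicate block, eBayes robust or without its trend, scaling to the upper quartile, quantile normalization, an adjusted p alone, and each library left out. A minimum of 0.1 FPKM, no minimum with the block, and leaving out all libraries of replicate 3 were added after the data were seen.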

Additional observations from a re-analysis of the deposited data

How the results depend on the processing

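The count of the 10 genes called between BDL and FO was 1 and rose to 2 with no minimum of FPKM, with a minimum of 0.1 FPKM, with no minimum and the replicate block, and with an adjusted p alone, and the count over the family of 33 did the same. For the partner genes the count between BDL and FO was 1 and became 2 under those settings and 0 with 1 added, and between BDL and MZ it was 2 and became 4 with no minimum, 4 with no minimum and the replicate block, 13 with an adjusted p alone and 1 with 1 added. Between FO and MZ it was 4 and became 13 with an adjusted p alone. With 1 library left out, the count between BDL and FO was 1 to 2 for the 7 of these genes tested and for the family, and the 2 came without FO replicate 3, which added Plxnb2. Left-out libraries gave 4 to 5 of the 7 between BDL and MZ, 4 to 5 between FO and MZ, 6 to 7 and 5 to 6 of the family, and 1, 2 to 3 and 4 of the partner genes in the 3 comparisons. With the replicate block on the number shared in the titles, the counts for the 7 genes were 1, 4 and 5, and the block changed no call of these genes, the family or the partner genes. Over the 7 genes tested, 452 of the values under other settings kept their direction and their side of the call, 4 lost the call (all Sema4b between FO and MZ), 3 gained it (all Plxnb2) and 3 changed sign. Those 3 were small, with Sema4d for BDL minus MZ at 0.01 without BDL replicate 1 and 0.02 without MZ replicate 2 (-0.16 to 0.02 over the libraries left out), and Plxnb2 for FO minus MZ at -0.05 without FO replicate 3 (-0.05 to 0.13). Sema4a, Nrp1 and Plxdc1 have values only with no minimum or one of 0.1 FPKM and with no minimum and the block, and they were not run with a library left out or another scaling. With 1 added, L1cam lost its calls between BDL and FO and between BDL and MZ, and Sema5a its call between BDL and MZ. Upper quartile scaling moved the median of all rows for BDL minus MZ from 0.057 to -0.049 on the log2 scale, and of the 7 genes tested none changed direction under it. With 3 libraries a subset, an exact permutation test could not go below 0.1. The lowest levels, such as those of Plxdc1, Nrp1 and, in MZ libraries, Sema4a, rest on few fragments.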
